A study of Homo sapiens with 16 samples.

Results

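The genes of squamous differentiation considered here were IVL, SPRR1A, SPRR1B, SPRR3, TGM1, LCN2, SLPI, PI3 and KLK10. Their probes were taken by name, as the rows of the microarray intensity table that carry one of these 9 gene symbols, and every probe was kept separate. The 9 genes themselves were chosen with earlier results of these data known. The 9 symbols had 10 probes (KLK10 had 2), out of 20589 rows and 18190 symbols in the table. MCF10A, a nontransformed human breast epithelial cell line, was treated with CP724,714, an inhibitor of the HER2 kinase, at 1 µM, and RNA was taken every 3 hours from parallel cultures up to 45 hours. The 0 hour culture was labelled untreated, and the other 15 had received the inhibitor for 3 to 45 hours. All cultures shared one serum-free Ham's F-12 medium with EGF, insulin, hydrocortisone, transferrin, triiodothyronine and selenium, together with albumin, ethanolamine, HEPES, fungizone and gentamicin. Each time point was 1 array of 1 culture, and the labels described no untreated culture at any later time. Treatment and time in culture therefore cannot be told apart in any of the values given here, and fewer cells making a transcript cannot be told apart from less transcript per cell.

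Squamous differentiation is the program by which stratified epithelia such as the epidermis build a tough outer layer. Transglutaminase 1 cross-links precursor proteins, among them involucrin and the small proline-rich proteins, into the cornified envelope beneath the plasma membrane, while kallikreins and their inhibitors set how fast the cells are shed. Secreted antiproteases and antimicrobial proteins such as SLPI, elafin (PI3) and lipocalin 2 (LCN2) are made by the same barrier epithelia. Mammary epithelial cells in culture are known to express part of this program, and signalling through the EGF receptor family is known to influence it in keratinocytes.

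Of the 9 genes, 6 had an entry in the RefSeq promoter table (GRCh38.p14), and 5 of those 6 held the AP-1-like letters TGANTCA within the 250 bases before the gene start. IVL, SPRR1A, SPRR3 and SPRR1B lie close together on chromosome 1, in the epidermal differentiation complex. Their promoters are shown because SPRR1A and SPRR1B gave different time courses below and IVL and SPRR3 are their neighbours in the complex, and that of LCN2 because it gave the largest fall of the members. All lie on the plus strand and are written 5′ to 3′, ending at the base before the gene start. In the first 4 sequences the capitals mark matches to TGANTCA, where N stands for any base, and in LCN2 they mark a match to kappaB-like letters, GGGAA and CC with 3 bases of any kind between them. Both were searched on both strands.
IVL, chr1:152908296-152908545: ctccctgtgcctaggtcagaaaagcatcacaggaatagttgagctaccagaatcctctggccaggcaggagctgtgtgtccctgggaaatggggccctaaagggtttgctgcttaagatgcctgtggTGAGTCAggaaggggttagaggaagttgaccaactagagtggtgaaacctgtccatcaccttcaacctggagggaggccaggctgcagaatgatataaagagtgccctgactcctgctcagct
SPRR1A, chr1:152983831-152984080: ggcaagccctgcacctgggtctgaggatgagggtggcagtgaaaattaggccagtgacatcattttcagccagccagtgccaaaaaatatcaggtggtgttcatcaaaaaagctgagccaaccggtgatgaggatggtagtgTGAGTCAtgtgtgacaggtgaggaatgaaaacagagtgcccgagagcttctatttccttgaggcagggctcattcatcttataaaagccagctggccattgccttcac
SPRR1B, chr1:153030953-153031202: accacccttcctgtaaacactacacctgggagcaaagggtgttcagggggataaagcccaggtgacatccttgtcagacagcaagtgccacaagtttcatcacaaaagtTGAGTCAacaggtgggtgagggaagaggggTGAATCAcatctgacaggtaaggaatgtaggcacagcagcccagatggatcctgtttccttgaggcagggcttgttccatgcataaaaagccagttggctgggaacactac
SPRR3, chr1:153001499-153001748: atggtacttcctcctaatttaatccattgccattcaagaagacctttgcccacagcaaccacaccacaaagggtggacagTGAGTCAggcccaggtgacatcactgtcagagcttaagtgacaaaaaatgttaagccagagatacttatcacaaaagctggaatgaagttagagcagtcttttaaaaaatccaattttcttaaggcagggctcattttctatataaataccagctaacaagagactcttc
LCN2, chr9:128149203-128149452: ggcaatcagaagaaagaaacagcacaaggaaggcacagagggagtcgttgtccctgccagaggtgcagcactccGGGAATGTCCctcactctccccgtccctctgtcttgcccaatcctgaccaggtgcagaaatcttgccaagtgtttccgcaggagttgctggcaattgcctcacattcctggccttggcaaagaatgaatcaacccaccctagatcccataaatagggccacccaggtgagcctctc
The AP-1-like match began 123 bases before the start of IVL, 108 before SPRR1A, 170 before SPRR3, and at both 141 and 111 before SPRR1B. LCN2 held one as well, TGAATCA at 52 bases before the start, printed in lower case above. Over all 35116 promoters in the table, 6.57% held TGANTCA and 6.02% held the kappaB-like letters in a window of the same length. SPRR1A and SPRR1B shared an unbroken run of 18 bases, tttccttgaggcagggct, which began 56 and 57 bases before their starts, and SPRR1A and SPRR3 shared 14 bases, aggcagggctcatt, overlapping that stretch. KLK10 had no AP-1-like match in either of its 2 overlapping windows, and the second of them held the kappaB-like letters. The LCN2 matches to the 2 motifs did not overlap. Both motifs were chosen after the sequences and the time courses had been seen, and a match describes the letters only.

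Of the 10 probes, 7 were above background on all 16 arrays: those of SPRR1A, SPRR1B, TGM1, LCN2, SLPI and PI3, and probe ILMN_8388 of KLK10. The detection p-value of the scanner software, which ranks a probe against the negative control beads, was below 0.05 for IVL on only 3 of 16 arrays, at 24, 36 and 42 hours. The SPRR3 probe (ILMN_10478) and the KLK10 probe ILMN_10270 passed it on 0 of 16 arrays. They have only an upper bound here, their normalised log2 intensities running from 5.38 to 5.93 for SPRR3 and from 5.41 to 6.03 for the second KLK10 probe. A probe was tested when it passed on at least 3 of 16 arrays, which left 8 of the 10 member probes among 11957 probes tested in all.

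Across the arrays, 50.1% to 52.9% of rows were above background, and the median deposited intensity ran from 210 to 254. The median intensity of the 6719 probes that were above background on no array was 182 to 192 at 0 to 21 hours and 160 to 179 at 24 to 45 hours. The label of a breast epithelial line was checked against marker lists. KRT5, KRT17, CDH3, KRT8, KRT18 and KRT19 were above background on all 16 arrays, and ESR1 and PGR, markers of hormone-responsive luminal cells, on none. Among the other basal markers KRT14 was above background on 1 array and ITGA6 on none. TP63, under its older name TP73L, was above it on 10 of 16 arrays and on 0 of 4 at 0-9 hours. Of the suprabasal squamous markers, KRT10 was above background on all 16 arrays, KRT1 on 1, and KRT4, KRT13, LOR and FLG on none. COL1A1, COL1A2, COL3A1 and PDGFRB, which mark fibroblasts, were at background throughout, and DCN was above it on 5 arrays. Of 6 leukocyte and endothelial markers, CD3E, VWF and CDH5 were at background on every array, while CD14 was above it on 0 of 4 arrays at 0-9 hours and on all 12 later ones, PECAM1 on 15 of 16 and PTPRC on 5. The summed normalised intensity of these 6 markers was 316 to 342 at 0-9 hours, 412 to 508 at 12-21 hours, 429 to 472 at 24-33 hours and 507 to 561 at 36-45 hours. It thus moved with the time windows compared below, and its part in the members' differences was not tested.

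To ask whether expression of these genes varied with time, a smooth curve (a natural spline with 3 degrees of freedom) was fitted to the 16 arrays with limma. The limma spline test called 54.6% of all tested probes at a Benjamini-Hochberg adjusted p under 0.05, so that a call was common. Of the 8 tested member probes 6 were called: LCN2 (adjusted p = 1.29e-07), PI3 (0.000296), SLPI (0.000766), TGM1 (0.00164), SPRR1A (0.00227) and SPRR1B (0.00575). KLK10 (ILMN_8388, 0.141) and IVL (0.597) were not. Without the 45 hour array the KLK10 probe passed as well (adjusted p = 0.0121), as it did with a spline of 5 degrees of freedom (0.0244).

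**Figure D1:**
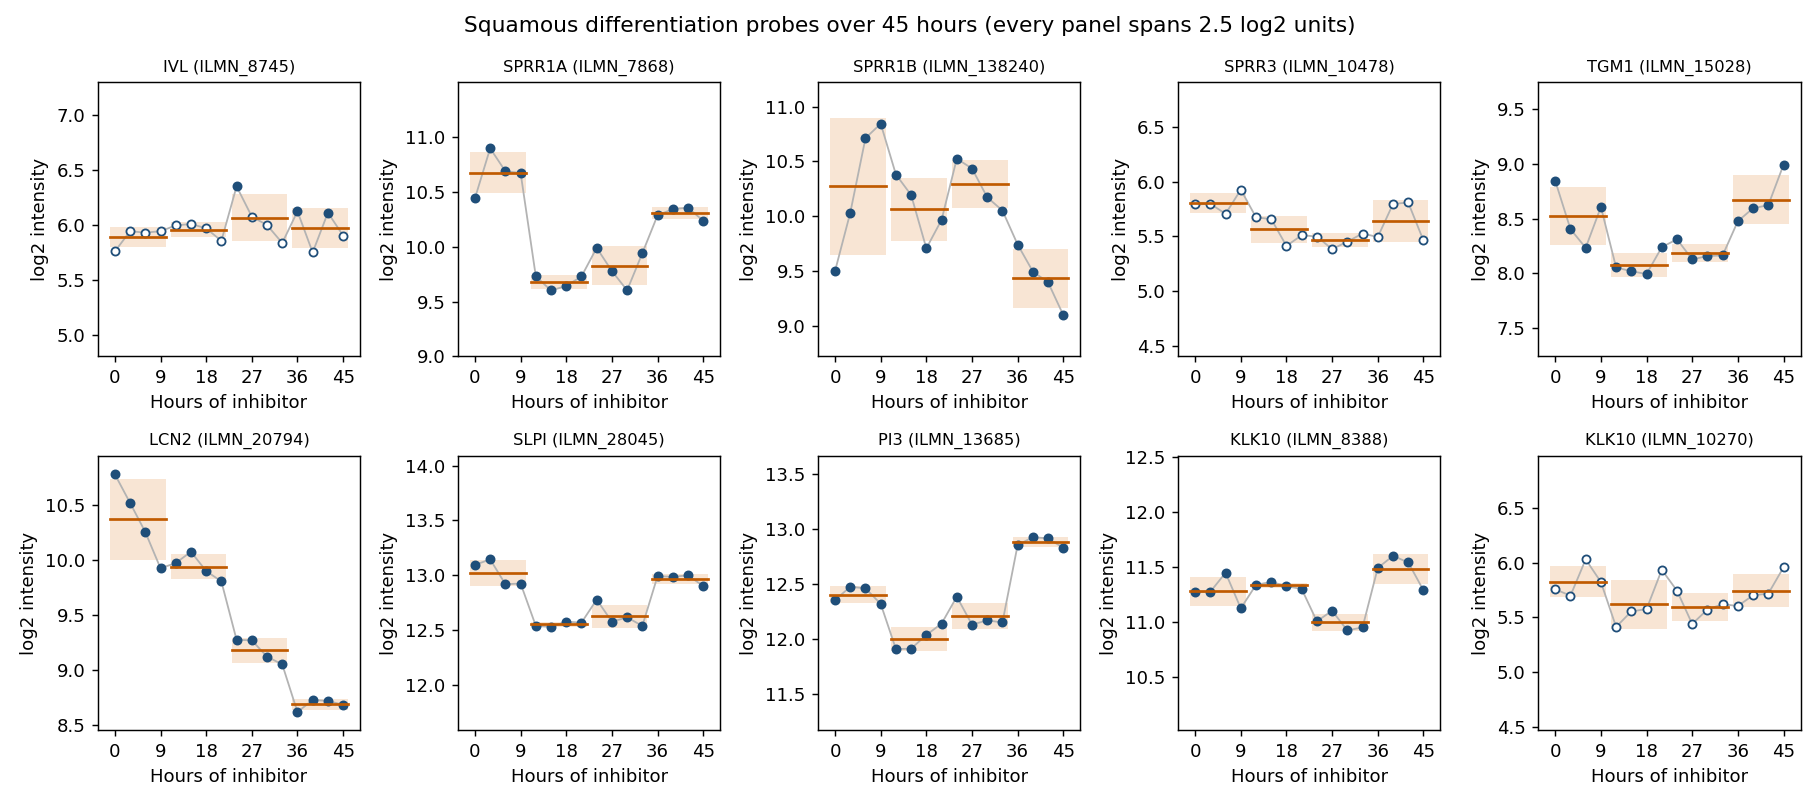
Normalised log2 intensity of the 10 member probes (y axis) against hours of inhibitor (x axis), 1 array a point; filled points are above background, open points are not, and the orange lines and shaded bands give the mean and SD of the 4 arrays in each window. LCN2 steps down from 10.78 at 0 hours to 8.68 at 45 hours, SPRR1A, TGM1, SLPI and PI3 dip after 9 hours and are higher from 36 hours, SPRR3 and the second KLK10 probe lie at background on every array, and IVL is above it on 3 of 16.

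For tests of when the changes took place the series was divided into 4 windows of 4 consecutive time points, 0-9, 12-21, 24-33 and 36-45 hours. The 4 arrays of a window are different times and not replicates of one, so the SD of a window includes any change within it. The 0-9 hour window pools the untreated 0 hour array with arrays already treated. A difference from that window is therefore not a difference from the untreated culture. The largest differences from 0 hours are given beside the windows, as a description: 43.8% of all tested probes lay at least 1.7-fold from the 0 hour array at some later time, 23.8% above it and 21.9% below it. Among the members, SPRR1B was at least 1.7-fold above its 0 hour value, SPRR1A, TGM1 and LCN2 were at least 1.7-fold below, and the other 4 tested probes stayed within that range. The largest falls of SPRR1A and TGM1, 1.79-fold and 1.80-fold, were close to that limit. Without background correction the count over all tested probes dropped from 5233 to 2187.

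The small proline-rich proteins are short, repeat-rich precursors of the envelope. SPRR1A (ILMN_7868) gave normalised log2 intensities of 10.44, 10.90, 10.69 and 10.67 at 0, 3, 6 and 9 hours, and then 9.73, 9.60, 9.64 and 9.73 at 12, 15, 18 and 21 hours. It gave 9.99, 9.78, 9.60 and 9.94 at 24 to 33 hours and 10.29, 10.34, 10.36 and 10.24 at 36 to 45 hours. Every array at 0-9 hours was thus above every later array, and those of 36-45 hours lay between them and the middle of the series without overlap. Its expression at 12-21 hours was 2.0-fold lower than at 0-9 hours (log2 difference -1.0, SE 0.10, limma adjusted p = 2.81e-06). From 24-33 to 36-45 hours it rose 1.39-fold (log2 difference 0.48, SE 0.10, adjusted p = 0.00115), and at 36-45 hours it was still 1.29-fold below 0-9 hours (log2 difference -0.37, SE 0.10, adjusted p = 0.00959). The largest step between neighbouring arrays was the fall of 0.94 on the log2 scale between 9 and 12 hours, the interval in which 17.4% of all tested probes had their largest step.

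SPRR1B (ILMN_138240), its close paralog, took another course. It gave 9.50, 10.03, 10.71 and 10.84 at 0 to 9 hours and 10.38, 10.19, 9.71 and 9.97 at 12 to 21 hours. It was at 10.52, 10.44, 10.17 and 10.05 at 24 to 33 hours and at 9.74, 9.50, 9.40 and 9.10 at 36 to 45 hours. Intensity was highest at 9 hours, 2.54-fold above 0 hours, and lowest at 45 hours, with 2 separate maxima and a spread of 3.35-fold between the extremes. The difference of 12-21 against 0-9 hours was within the spread of the early window (log2 difference -0.21, SE 0.23, limma adjusted p = 0.544). At 36-45 hours SPRR1B was 1.82-fold below 24-33 hours (log2 difference -0.86, SE 0.23, adjusted p = 0.00748) and 1.79-fold below 0-9 hours (log2 difference -0.84, adjusted p = 0.0112). The second call was lost in a fit of only the 8 arrays compared (adjusted p = 0.0541). The former difference had no overlap between the windows, and the latter had overlap, since the 0 hour array lay within the late range.

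The difference of the 2 courses was examined directly, a comparison chosen after the values had been seen. The log2 difference SPRR1A minus SPRR1B, set to 0 at 0 hours, averaged -0.54 ± 0.58 at 0-9 hours, -1.33 ± 0.28 at 12-21 hours, -1.41 ± 0.24 at 24-33 hours and -0.07 ± 0.25 at 36-45 hours (SD, n = 4 arrays each). From 24-33 to 36-45 hours SPRR1A thus moved up relative to SPRR1B by 1.34 on the log2 scale, or 2.53-fold. The 2 windows did not overlap in this measure, and the two-sided exact permutation p was 0.0286, the smallest that 4 against 4 arrays can give. Adjusted over the 4 window comparisons it was 0.114, and no comparison passed the adjusted threshold of 0.05. A single comparison at the smallest possible p cannot pass after adjustment over 4, so this failure decides nothing. The other exact permutation p-values were 0.0571 for 12-21 against 0-9 hours, 0.257 for 36-45 against 0-9 hours and 0.8 for 24-33 against 12-21 hours. The permutation took the arrays as interchangeable, although they are consecutive times. Within the last window the measure moved from -0.40 at 36 hours to 0.20 at 45 hours. These p-values therefore describe the separation of the windows and not the spread between replicate cultures. The probes' sequences were not analysed here, so cross-hybridisation between the paralogs was not tested.

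**Figure D2:**
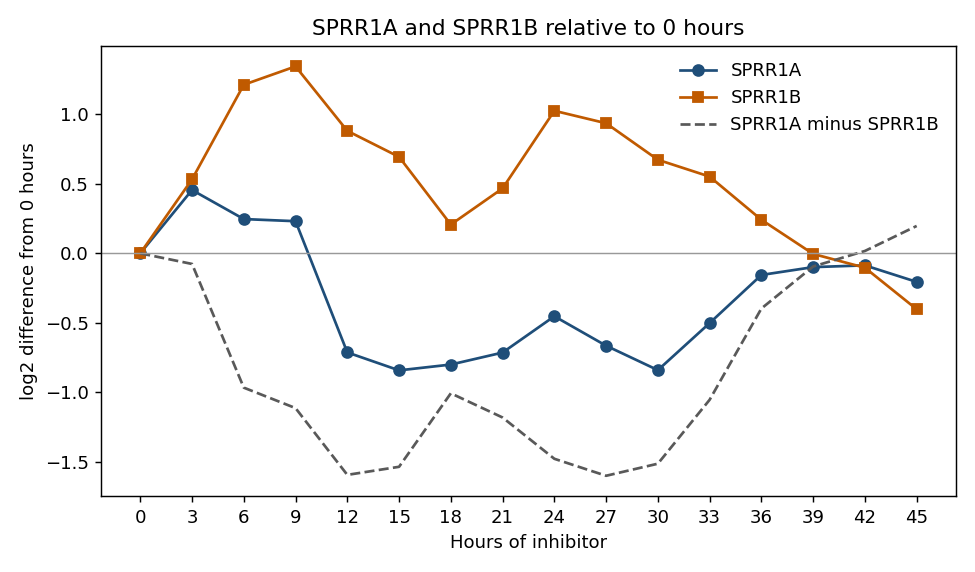
SPRR1A and SPRR1B as log2 differences from their own 0 hour array (y axis) against hours of inhibitor (x axis), with SPRR1A minus SPRR1B as a dashed line; each point is 1 array. SPRR1B lies above its 0 hour value from 3 to 36 hours while SPRR1A lies below its own from 12 hours on, and the dashed line climbs from -1.51 at 30 hours to 0.20 at 45 hours.

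The remaining envelope precursors gave dim probes. IVL, which encodes involucrin, the scaffold protein of the envelope, ran from 5.75 to 6.35 on the log2 scale with a median of 5.96, and none of its window differences was called (limma adjusted p from 0.583 to 1.00). SPRR3 was at background on every array and has only a bound.

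TGM1 (ILMN_15028) encodes the enzyme that cross-links these precursors. It gave 8.84, 8.40, 8.23 and 8.61 at 0 to 9 hours, 8.05, 8.02, 7.99 and 8.24 at 12 to 21 hours, 8.31, 8.13, 8.16 and 8.16 at 24 to 33 hours, and 8.48, 8.59, 8.62 and 8.99 at 36 to 45 hours. The first and last arrays were thus the brightest, and the extremes at 18 and 45 hours were 1.99-fold apart. From 24-33 to 36-45 hours TGM1 rose 1.40-fold without overlap (log2 difference 0.48, SE 0.14, limma adjusted p = 0.00977). The difference of 12-21 against 0-9 hours was -0.44 (SE 0.14, adjusted p = 0.0203), with overlap between the windows, and that of 36-45 against 0-9 hours was 0.15 (adjusted p = 0.434). The earlier call was lost without the 0, 15 or 18 hour array (adjusted p = 0.0618, 0.0522 and 0.0528), and the difference without the 0 hour array was -0.34.

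Among the secreted proteins LCN2 (ILMN_20794) changed most. Lipocalin 2 binds bacterial siderophores and so keeps iron from microbes. Its log2 intensity was 10.78, 10.52, 10.26 and 9.93 at 0 to 9 hours and 9.97, 10.08, 9.90 and 9.81 at 12 to 21 hours. It was 9.27, 9.27, 9.12 and 9.05 at 24 to 33 hours and 8.61, 8.72, 8.72 and 8.68 at 36 to 45 hours. The decline came in 3 parts, across the first 9 hours, between 21 and 24 hours and between 33 and 36 hours, and the lowest array (36 hours) was 4.49-fold below 0 hours. At 36-45 hours LCN2 was 3.22-fold lower than at 0-9 hours (log2 difference -1.69, SE 0.14, limma adjusted p = 1.84e-07), and every late array was below every early one. The fall from 24-33 to 36-45 hours was 1.41-fold (log2 difference -0.49, SE 0.14, adjusted p = 0.00835), also without overlap. Between 12-21 and 24-33 hours LCN2 differed by -0.76 (SE 0.14), again without overlap, with an adjusted p of 0.0735 in a comparison where few probes passed, and the same difference was called without the 0 or the 9 hour array (adjusted p = 0.00846 and 0.00421). The fall from 0-9 to 12-21 hours (log2 difference -0.43, adjusted p = 0.0239) was lost without the 0, 3, 18 or 21 hour array (adjusted p from 0.054 to 0.0728). The step of -0.53 between 21 and 24 hours was the largest of LCN2, in an interval where 3.69% of all tested probes had theirs. The 3.22-fold difference includes the -0.76 between 12-21 and 24-33 hours. Across that interval the median intensity of probes never above background also fell, from 182 to 192 before it to 160 to 179 after. The part of this drop in the LCN2 difference was not tested.

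SLPI and PI3 belong to the same family of whey acidic protein inhibitors, lie near each other on chromosome 20 and inhibit neutrophil elastase. SLPI (ILMN_28045) gave 13.10, 13.15, 12.92 and 12.93 at 0 to 9 hours, 12.54, 12.53, 12.58 and 12.57 at 12 to 21 hours, 12.78, 12.58, 12.62 and 12.54 at 24 to 33 hours, and 12.99, 12.99, 13.00 and 12.90 at 36 to 45 hours. The early and the late arrays overlapped each other and lay above all 8 between them. SLPI was 1.38-fold lower at 12-21 than at 0-9 hours (log2 difference -0.47, SE 0.06, limma adjusted p = 4.89e-05) and rose 1.27-fold from 24-33 to 36-45 hours (log2 difference 0.34, SE 0.06, adjusted p = 0.000381). The late minus the early level was -0.05 (SE 0.06, adjusted p = 0.578), a sign that turned to 0.07 when the arrays were scaled by their medians.

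PI3 (ILMN_13685), which encodes elafin, gave 12.35, 12.48, 12.46 and 12.32 at 0 to 9 hours and 11.91, 11.91, 12.04 and 12.14 at 12 to 21 hours. It gave 12.38, 12.13, 12.17 and 12.15 at 24 to 33 hours and 12.86, 12.93, 12.92 and 12.83 at 36 to 45 hours. The 4 late arrays were thus above every other array of the series. PI3 was 1.32-fold lower at 12-21 than at 0-9 hours (log2 difference -0.40, SE 0.07, limma adjusted p = 0.000396) and rose 1.60-fold from 24-33 to 36-45 hours (log2 difference 0.67, SE 0.07, adjusted p = 1.41e-06). It was the one member probe called higher at the end of the series, 1.39-fold at 36-45 against 0-9 hours (log2 difference 0.48, SE 0.07, adjusted p = 5.96e-05). Without the step between 21 and 24 hours, that is without the difference of 24-33 against 12-21 hours, it was 0.27 and not called (adjusted p = 0.0802). Its largest step was the rise of 0.71 on the log2 scale between 33 and 36 hours, where 17% of all tested probes had theirs.

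KLK10 encodes a secreted serine peptidase of the kallikrein family. Its brighter probe, ILMN_8388, gave 11.27, 11.27, 11.45 and 11.12 at 0 to 9 hours, 11.34, 11.36, 11.32 and 11.30 at 12 to 21 hours, 11.00, 11.10, 10.92 and 10.95 at 24 to 33 hours, and 11.49, 11.60, 11.54 and 11.29 at 36 to 45 hours. The arrays of 24-33 hours were the lowest of the series and overlapped no other window. From there KLK10 rose 1.40-fold to 36-45 hours (log2 difference 0.49, SE 0.08, limma adjusted p = 0.000128), while the preceding fall of 12-21 to 24-33 hours was -0.34 (SE 0.08, adjusted p = 0.304, and 0.0496 in a fit of only the 8 arrays compared). The difference of 36-45 against 0-9 hours was 0.20 (adjusted p = 0.0639) and passed without the 6 or the 45 hour array (adjusted p = 0.0255 and 0.018), and without the step between 21 and 24 hours it was 0.54 (adjusted p = 0.00439). The dim probe ILMN_10270, at background on all 16 arrays, gave no course to set beside it.

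Set side by side, the members called in the first step all fell, and those called in the last step went both ways. Between 0-9 and 12-21 hours 0 of the 8 tested member probes rose and 5 fell (SPRR1A, TGM1, LCN2, SLPI and PI3), and their median log2 difference was -0.42. Over all 11957 tested probes limma called 29.5% in this comparison, 15.1% higher and 14.4% lower, with a median near 0 (-0.0006). Scaling the arrays by their medians in place of quantile normalization moved that split of all calls from 51.2% to 73.2% higher, and TGM1, LCN2 and PI3 then kept their sign but lost their calls (log2 differences of -0.30, -0.26 and -0.21, adjusted p = 0.0987, 0.115 and 0.0615), while KLK10 was called higher (log2 difference 0.24, adjusted p = 0.0299).

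Between 12-21 and 24-33 hours limma called none of the member probes, and 0.0251% of all tested probes, that is 3. The median log2 difference of the members was 0.11. SPRR1A, SPRR1B, TGM1, SLPI and PI3 differed by 0.07 to 0.23 and LCN2 and KLK10 by -0.76 and -0.34. Leaving out 1 array moved the count over all probes to between 1 (without 12, 15, 18, 24, 27 or 30 hours) and 6 (without 45 hours), with 5 without 9 or 21 hours.

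Between 24-33 and 36-45 hours 5 of the 8 tested member probes rose (SPRR1A, TGM1, SLPI, PI3 and KLK10), 2 fell (SPRR1B and LCN2) and IVL was not called, with a median log2 difference of 0.41. The background was 38% of all tested probes called by limma, 19.3% higher and 18.7% lower. Overlap between windows is given for single members here and above as a description only. How many of all tested probes had no overlap was not counted, so whether the members differ from them in this cannot be said. With median scaling the share of higher among all calls moved from 50.8% to 36.9%, and SLPI lost its call (log2 difference 0.17, adjusted p = 0.0855).

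From 0-9 to 36-45 hours 1 member probe rose (PI3), 3 fell (SPRR1A, SPRR1B and LCN2) and 4 were not called, with a median of 0.01, while limma called 31.2% of all tested probes, 16.2% higher and 15% lower. This comparison shares its arrays with those above. Under median scaling 73.1% of all calls were higher in place of 51.8%, SPRR1A lost its call (log2 difference -0.22, adjusted p = 0.111) and KLK10 gained one (log2 difference 0.33, adjusted p = 0.00495).

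**Figure D3:**
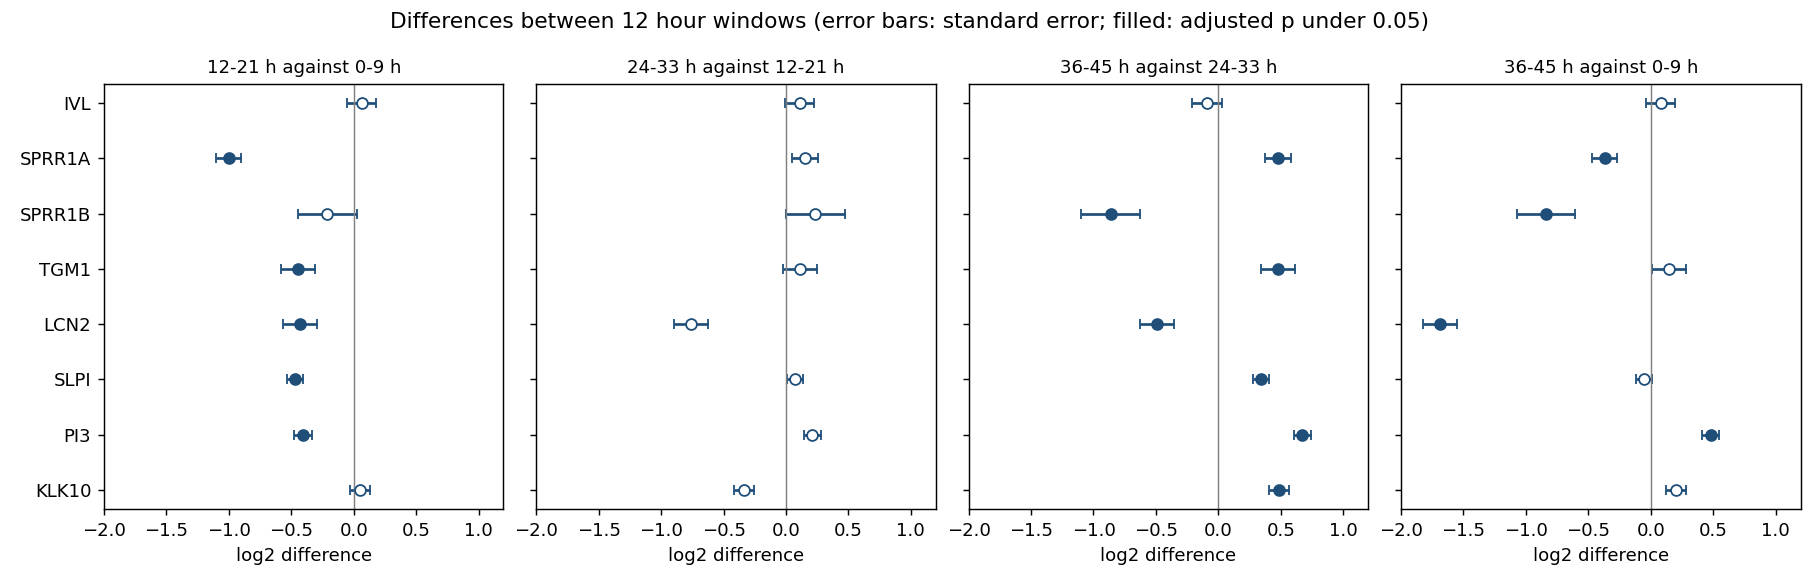
Log2 difference (x axis) of each of the 8 tested member probes (y axis) in the 4 window comparisons; bars are the standard errors of the limma fit and filled points have an adjusted p under 0.05. In the comparison of 36-45 against 24-33 hours SPRR1A, TGM1, SLPI, PI3 and KLK10 lie between 0.34 and 0.67, and SPRR1B and LCN2 at -0.86 and -0.49.

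The likeness of 2 courses was described by the root mean square of their difference on the log2 scale over the 16 arrays, each course centred on its own mean. The closest members were TGM1 and SLPI at 0.18, followed by SLPI and PI3 at 0.22, and the farthest apart were LCN2 and PI3 at 0.91. This measure also depends on how far each course moves. The root mean square of the own course was 0.22 for SLPI, 0.29 for TGM1, 0.34 for PI3, 0.41 for SPRR1A and 0.48 for SPRR1B. A flat course would thus lie about as near to SLPI as PI3 did. SPRR1A and SPRR1B were 0.64 apart, farther than SPRR1A was from TGM1 (0.32), PI3 (0.33) or SLPI (0.24). Among all tested probes of other genes, TP53I3 (0.12) and NAGK (0.14) came nearest to SPRR1A, and TNFRSF10A (0.19) and RQCD1 (0.20) to SPRR1B. PHLDA1 (0.27) and IGFBP6 (0.28) came nearest to LCN2, whose own course had a root mean square of 0.68. For TGM1 they were MAP2K1IP1 and MCEE (0.12 each), for SLPI TBXAS1 (0.07) and STK16 (0.08), and for PI3 RNF44 (0.11) and SFXN3 (0.11). The probes nearest to KLK10 were those of PYGB (0.11) and CDH3 (0.12), and those nearest to the dim IVL were MRPS21 and POGK (0.11 and 0.12).

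Other genes of the same program were followed as lists, by the brightest probe of each symbol. Of 26 further envelope proteins and transglutaminases on the array 13 were tested, and 12, among them LOR and FLG, were above background on no array. Between 0-9 and 12-21 hours 6 of the 13 fell and 0 rose (median log2 difference -0.29), and between 24-33 and 36-45 hours 6 rose and 0 fell (median 0.09). Between 0-9 and 36-45 hours 3 rose and 4 fell. PPL, which encodes the envelope plakin periplakin, was 2.02-fold higher (log2 difference 1.01, SE 0.11, limma adjusted p = 2.09e-06). SPRR2A, a further small proline-rich protein with near-identical neighbours, was 3.29-fold lower (log2 difference -1.72, SE 0.41, adjusted p = 0.00403), and went from 7.31 at 0 hours to 9.63 at 9 hours and 6.96 at 45 hours. As with SPRR1B, its highest array was thus that of 9 hours, and its untreated 0 hour array lay within the range of 36-45 hours (6.96 to 7.44). The limma spline test did not call SPRR2A (adjusted p = 0.115). TGM2, tissue transglutaminase, was 1.49-fold lower (adjusted p = 0.022), a call that was lost without the 6, 9 or 36 hour array (adjusted p = 0.0643, 0.0586 and 0.0765). The TGM2 call was also lost with median scaling (limma adjusted p = 0.0504) and with only the 8 arrays compared (0.0514). Without the step between 21 and 24 hours its log2 difference was -0.25 (limma adjusted p = 0.576).

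Of 10 tested kallikreins, epithelial serine proteases and their inhibitors, 8 rose and 0 fell between 24-33 and 36-45 hours, with a median log2 difference of 0.89, and 7 rose and 0 fell between 0-9 and 36-45 hours. KLK7, a protease of epidermal shedding, ended 1.73-fold higher than at 0-9 hours (limma adjusted p = 2.49e-05), the protease inhibitor SPINT1 1.58-fold (adjusted p = 0.000975) and KLK8 1.56-fold (adjusted p = 0.00101). KLK10, with a difference of 0.49 between 24-33 and 36-45 hours, lay below the median of this list. Between 0-9 and 12-21 hours 3 of the 10 fell and 0 rose, and between 12-21 and 24-33 hours 1 fell, KLK6.

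Of 6 tested antiproteases and antimicrobial proteins besides SLPI, PI3 and LCN2, 2 fell at 12-21 against 0-9 hours, 3 rose at 36-45 against 24-33 hours, and 2 ended higher than at 0-9 hours. These were DEFB1, a beta defensin (1.86-fold, limma adjusted p = 1.65e-05), and SERPINB1, an inhibitor of neutrophil elastase (1.78-fold, adjusted p = 0.000117). DEFB1 ran from 11.36 at 27 hours to 13.51 at 45 hours, and so parted from LCN2, which was lowest in the last window. In the desmosome, the adhesive junction of stratified epithelia, 5 of 8 tested genes fell at 12-21 hours (median log2 difference -0.58) and 6 rose at 36-45 against 24-33 hours (median 0.56). PKP2 ended 1.44-fold higher than at 0-9 hours (limma adjusted p = 0.000769) and PKP3 1.53-fold lower (adjusted p = 0.0397), the latter not called without the 0, 3, 6, 39 or 45 hour array (log2 difference -0.32 without 45 hours, against -0.61). PKP3 also lost its call with median scaling, cyclic loess normalization or no filter on dim probes (limma adjusted p = 0.14, 0.0581 and 0.0519). The same held with only the 8 arrays compared and without the step between 21 and 24 hours (limma adjusted p = 0.15 and 0.23).

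Of 12 tested transcription factors of epithelial differentiation, 1 rose (TP73L) and 1 fell (GRHL1) between 0-9 and 12-21 hours, 4 rose and 0 fell between 24-33 and 36-45 hours, and 3 rose and 1 fell between 0-9 and 36-45 hours. ELF3, an epithelial ETS factor, was at 11.55 at 0 hours, between 8.16 and 9.86 at 3 to 33 hours and between 11.33 and 11.74 at 36 to 45 hours. Its 36-45 hour level was 4.49-fold above that of 0-9 hours (log2 difference 2.17, limma adjusted p = 0.00283, and 2.90 without the 0 hour array). The probe named TP73L, an older name of TP63, the p63 factor of basal epithelial cells, was not above background on any array at 0-9 hours and was at least 2.55-fold higher at 36-45 hours (adjusted p = 6.72e-07). GATA3 was 1.82-fold higher at 36-45 than at 0-9 hours (log2 difference 0.86, limma adjusted p = 0.0147). That call was lost in a fit of only the 8 arrays compared (adjusted p = 0.0539). It was also lost without the step between 21 and 24 hours (log2 difference 0.64, adjusted p = 0.267). The GATA3 value of the untreated 0 hour array lay within the range of 36-45 hours (7.16 to 7.62), and those of 3 to 9 hours were 6.13 to 6.37. The lists were chosen with earlier results of these data known, and their counts are given as a description beside the shares of all tested probes printed above.

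**Figure D4:**
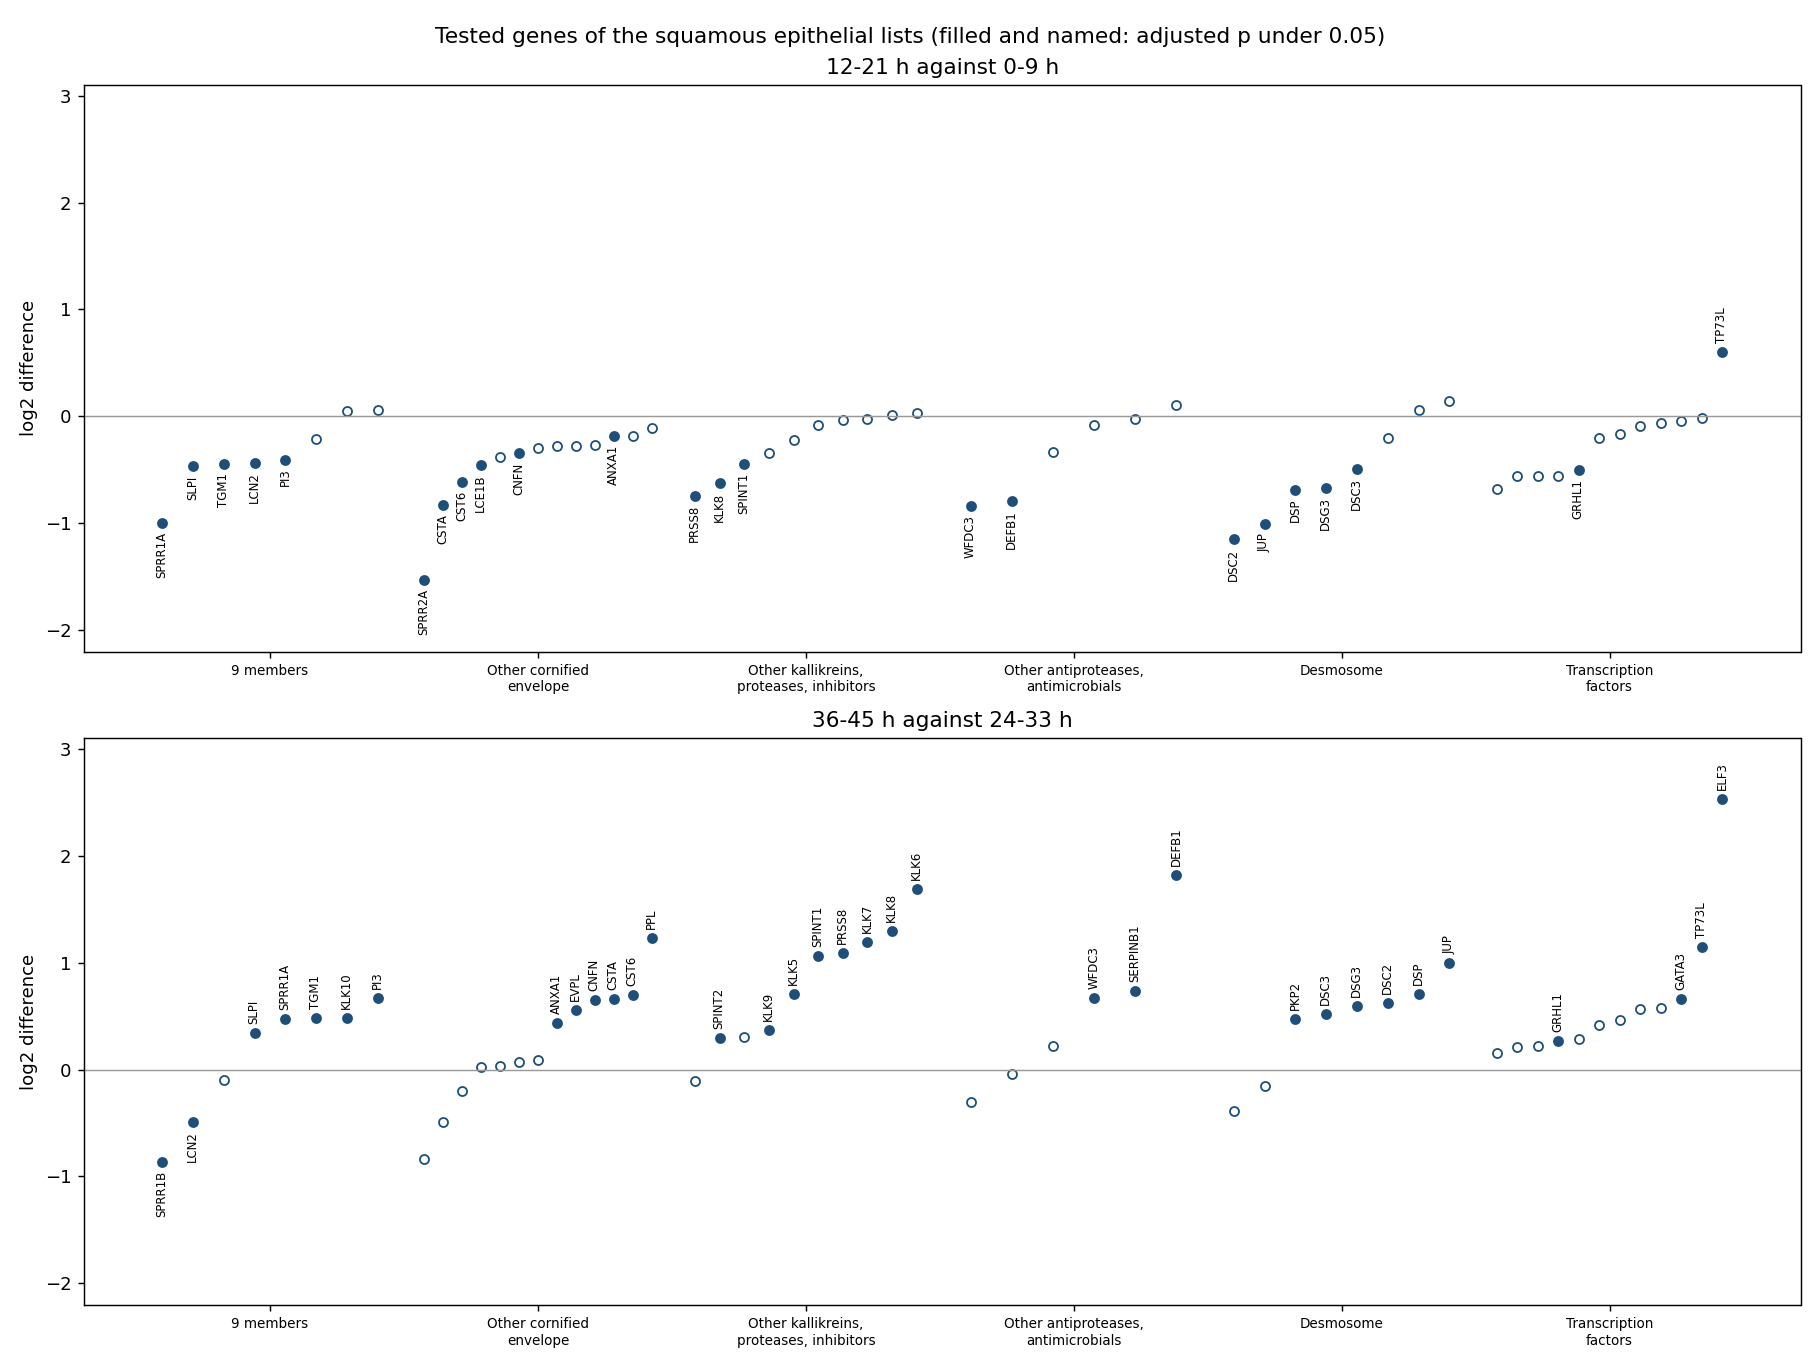
Log2 difference (y axis) of every tested gene in the members and the 5 related lists (x axis) for 12-21 against 0-9 hours (top) and 36-45 against 24-33 hours (bottom); each point is 1 probe, filled and named where the limma adjusted p was under 0.05. In the upper panel TP73L is the one called gene above 0, and in the lower panel SPRR1B and LCN2 are the called genes below it.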

How the data were processed

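Total RNA of 16 cultures was hybridised to Illumina bead arrays, 1 per time point. The deposited table gave, per the file headers, 1 intensity that the authors had not normalised and 1 detection p-value for each row and array; p-values in whole steps of 1/708 marked 19092 single-probe rows, and the other 1497 rows combined several probes. Columns of no sample numbered 0.

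In limma 3.58.1 (R 4.3.3) the intensities were background-corrected by normexp with negative controls inferred from the detection p-values of single-probe rows (offset 16), quantile normalised and taken to log2. A probe entered the tests when 3 or more of the 16 arrays gave it a detection p-value below 0.05 (11957 probes, 11290 symbols). A spline in time (3 degrees of freedom) and a fit of 4 windows of 4 time points (12 residual degrees of freedom) were run with a trended empirical Bayes prior, and p-values were Benjamini-Hochberg adjusted over all tested probes. Because the 4 arrays of a window are single cultures of different times, p-values measure only the spread among these arrays. A bound for a probe at background on all arrays of a window was set against the lowest signal among probes above background on each array. The spline and window fits were also run on simulated log2 values with independent noise. The background correction, the normalisation, the detection filter and the bound were not part of that run. Promoters came from the RefSeq table of GRCh38.p14, and plots were drawn with matplotlib 3.10.9. All 9 member symbols were current in RefSeq.

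The members, gene lists and tests were chosen with earlier results of these data known. All member probes were named, with the 3 called genes of each list that differed most between 0-9 and 36-45 hours and the 2 probes of other genes nearest to each member. Genes named beyond these, as markers or with the counts, were chosen after their values were seen. The promoters of TGM1, SLPI and PI3 and the probe sequences were not analysed here, and 1 marker gene is not reported here. Array number limits the precision.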

Additional observations from a re-analysis of the deposited data

How the results depend on the processing

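Of the member probes' results under the other settings tried, leaving aside the omission of single arrays, 298 kept their direction and side of the threshold, 14 lost a call, 9 gained one and 2 changed sign without a call. The signs that changed were those of SLPI at 36-45 against 0-9 hours (log2 difference 0.0731 with median scaling) and IVL in the same comparison (-0.0299 without the step between 21 and 24 hours). With 1 array left out, IVL at 36-45 against 24-33 hours ran from -0.17 (without 33 hours) to 0.00179 (without 24 hours). The count of probes with a time course fell from 6533 to 1953 with a straight line in time, which lost SPRR1A, SPRR1B, TGM1, SLPI and PI3 (limma adjusted p from 0.0895 to 0.843), and ran from 5965 to 6542 when 1 array was left out. For 36-45 against 0-9 hours the 3730 calls became 2475 with only the 8 arrays compared, 1617 without the step between 21 and 24 hours (the 2 differences on either side of it added, leaving out that of 24-33 against 12-21 hours), where PI3 lost its call (log2 difference 0.27, adjusted p = 0.0802) and KLK10 gained one (0.54, adjusted p = 0.00439), and 3101 to 4317 without 1 array. For 12-21 against 0-9 hours the 3527 calls became 2178 with only the 8 arrays, and 2744 to 4290 without 1 array. SPRR1B at 36-45 against 0-9 hours and TGM1 and LCN2 at 12-21 hours were not called with only their 8 arrays (adjusted p = 0.0541, 0.0734 and 0.103). For 24-33 against 12-21 hours the 3 calls became 11 with median scaling, 8 with 5 windows, 12 with only the 8 arrays, and 1 to 6 without 1 array; LCN2 was called under the first 3 of these settings (adjusted p = 0.0406, 0.000606 and 0.00117). For 36-45 against 24-33 hours the 4542 calls ran from 3827 to 5029 without 1 array. The count at least 1.7-fold from 0 hours, 5233, fell to 2187 with no background correction and ran from 4965 to 5193 without 1 array. The cause was not tested for any of these. No paired analysis was possible because every time point had a single array numbered 1, so that the replicate numbers pair no samples.

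SPRR3 and 1 KLK10 probe, at background on every array, have only a bound, and IVL was above it on 3 arrays. The 1 culture per time point leaves the spread between replicate cultures unknown, and the part of the lower intensity of dim probes from 24 hours on in the later values was not tested.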
